A study of Mus musculus with 11 samples.

Results

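Resident macrophage identity genes were followed through 11 RNA sequencing libraries of colonic macrophages. They are a set of 9 genes, chosen by name (Csf1r, Cx3cr1, Adgre1, Mrc1, Cd163, Maf, Mertk, Itgam and Ptprc), and all 9 were listed once each among the 23282 entries of the count files. The cells were labelled by their surface markers as CD45+ CD11b+ Ly6G- Ly6C- MHCII+ CD64+, and Ptprc and Itgam encode the CD45 and CD11b of that pattern. Libraries labelled WT came from wild-type mice and those labelled KO from the Csf1r-EP4-/- strain, and for every library the labels name a course of dextran sodium sulphate (DSS), given at 2.5% in the water for 5 days. DSS injures the colon lining and is a common model of colitis, and EP4 is a receptor of prostaglandin E2 encoded by Ptger4. By the genotype and day in the titles, 3 libraries were labelled KO and 2 WT at day 0, and 3 KO and 3 WT at day 39. The headers of the files give day 35 for the libraries titled day 39. The strain name pairs Csf1r with EP4, while the construct, the cells in which the receptor gene was removed, the age of the mice and whether animals were pooled are not given in the sources used here. Because nothing says that libraries of a group came from separate animals, p-values measure only the spread between these libraries, which may be technical.

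Macrophages of the gut wall arise largely from blood monocytes and depend on signals through the CSF1 receptor for their survival. As they settle they gain CX3CR1, F4/80 (encoded by Adgre1), the mannose receptor CD206 (Mrc1) and the haemoglobin scavenger CD163, and MAF is a transcription factor of the settled state. MERTK is a receptor with which macrophages take up dying cells. In mice these genes are used together to describe tissue macrophages.

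The libraries held 4003299 to 14207919 counts, and 3818 to 7450 entries per library had any count. A gene with 3 counts or fewer in a library is described as at or under the floor, a limit that covers counting error only. Ptger4, the gene of the deleted receptor, had 1350, 0 and 890 counts (KO) and 0 and 0 (WT) at day 0, and 1, 8 and 4501 (KO) and 1481, 152 and 7286 (WT) at day 39. It went against the label in 3 libraries labelled KO, and both WT day 0 libraries had none. The counts come from near the 3′ end of transcripts, and where the deletion leaves that end in place they do not check the label. Directions between genotypes therefore refer to the labels. The other 10 genes of the macrophage marker list (Fcgr1, Cd68, Lyz2, Mpeg1, the C1q genes and MHC class II genes) summed to 12230 to 62160 counts per 1000000 (CPM) at day 0 and 23160 to 36190 CPM at day 39. The T-cell genes Cd3e, Cd3g and Cd8a, the B-cell genes Ms4a1 and Cd79a and the dendritic-cell genes Flt3, Zbtb46 and Clec9a had 0 counts in every library. Summed over each list, T-cell and NK-cell markers reached at most 300.5 CPM, B-cell and plasma-cell markers 210.5, dendritic-cell markers 6.97, neutrophil markers 307, monocyte markers 1441, endothelial markers 191 and mast-cell and eosinophil markers 398 CPM in a library. Of 12 epithelial markers, 7 were above the floor in any day 0 library and 12 in any day 39 library, and they summed to 74.7 to 1776 CPM at day 0 and 1582 to 8624 CPM at day 39. All 9 stromal markers were found at both days, at 3056 to 20870 CPM and 5721 to 10980 CPM, and so were all 8 skeletal muscle markers, at 2184 to 22610 CPM and 3007 to 14220 CPM.

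The identity genes were detected unevenly. Of the 99 values of 9 genes in 11 libraries, 49 were 1000 counts or more, 25 were at or under the floor and 17 were 0. Mertk took 11 of the 25. Of the other 88 values, 14 were at or under the floor, and they were spread over Cd163 (5 libraries), Itgam (3), Ptprc (3), Adgre1 (2) and Maf (1). Csf1r, Cx3cr1 and Mrc1 were above the floor in 11 of 11 libraries. The number of identity genes above the floor was 8, 6 and 7 (KO) and 7 and 6 (WT) at day 0, and 5, 7 and 5 (KO) and 8, 8 and 7 (WT) at day 39. The groups overlapped, with KO day 39 replicates 1 and 3 holding the lowest values. Counted above 10 counts in place of 3, the numbers at day 39 were 4, 6 and 4 (KO) and 8, 8 and 7 (WT), and counted from 1 CPM they were 5, 6 and 5 (KO) and 8, 8 and 7 (WT), without overlap on either scale. Among all tested genes the share above the floor was 32.1% to 55.9% per library, with 44.1%, 46.3% and 46.4% (KO) and 55.9%, 51.6% and 40.3% (WT) at day 39. Above 10 counts the day 39 shares were 39.7%, 43.3% and 39.6% (KO) and 44.4%, 50.0% and 37.9% (WT), and from 1 CPM they were 44.1%, 44.8% and 46.4% (KO) and 55.9%, 51.0% and 39.4% (WT). Over all tested genes the groups overlapped on each of the 3 scales, with 2 of 3 WT libraries above every library labelled KO.

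**Figure D1:**
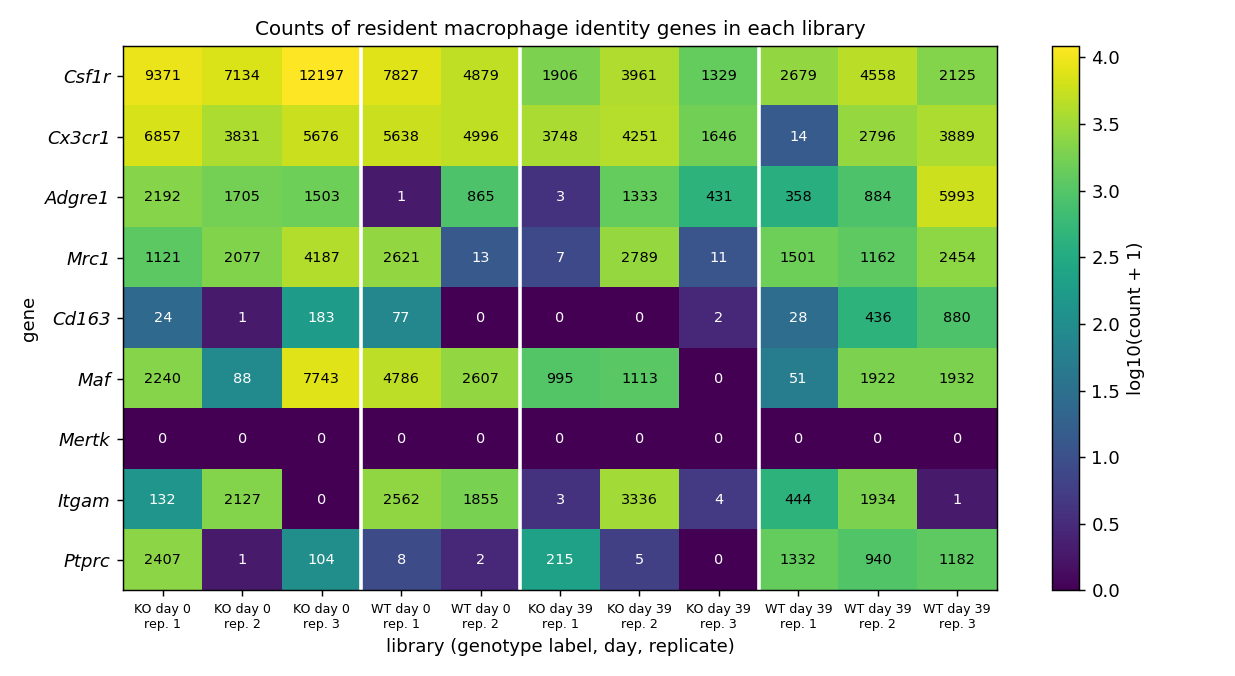
Counts of the 9 identity genes (rows) in the 11 libraries (columns, grouped by genotype label and day, with white lines between groups). Colour is log10(count + 1) and each cell prints its count. Csf1r is high in every column, Mertk is 0 in every column, and the other genes drop to a few counts in some libraries of a group and not in others.

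Csf1r, the receptor for the growth factors CSF1 and IL-34, was the most evenly measured identity gene. It had 9371, 7134 and 12197 counts (KO) and 7827 and 4879 (WT) at day 0, and 1906, 3961 and 1329 (KO) and 2679, 4558 and 2125 (WT) at day 39. It was among the 100 entries with at least 1000 counts in all 11 libraries and ranked 25 of these by its coefficient of variation, which was 41.9%. Its level was 1506, 917 and 798 CPM (KO) and 1398 and 1150 (WT) at day 0, and 493, 783 and 383 (KO) and 813, 838 and 465 (WT) at day 39. Within each genotype label every day 39 library was below every day 0 library. When the genotypes were put together the days overlapped, because WT day 39 replicates 1 and 2 were above KO day 0 replicate 3.

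The mean Csf1r level was 1154 CPM ± 302.5 (SD, n = 5) at day 0 and 629 CPM ± 204 (SD, n = 6) at day 39, a 1.83-fold difference. A two-sided exact permutation test over 462 arrangements of the libraries gave p = 0.013, where the smallest possible p was 0.00433. The same test had p under 0.05 in 7.43% of the 6987 tested genes, or 1.45% when counted only where day 39 was lower. Adjusted over all tested genes the exact permutation p was 0.483, and 0 genes passed, with a smallest adjusted p of 0.246. In edgeR, the count model fitted over all genes, the log2 fold change of Csf1r was -0.85 ± 1.4 (SE) in WT and -0.96 ± 1.28 in KO, with adjusted p-values of 0.800 and 0.826. In WT it was -2.52 with upper-quartile scaling, and in KO it was -0.63 without KO day 0 replicate 1 and -0.52 without the 3 libraries labelled KO that held Ptger4. The difference between these changes was -0.11 ± 1.90 (edgeR adjusted p = 1). That difference turned to 1.42 with upper-quartile scaling and to 0.22 without KO day 0 replicate 1. Csf1r therefore passed neither test after adjustment, and a gene that does not pass is not shown to be unchanged.

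Per 10000 counts of the 10 other macrophage markers, Csf1r had 242, 626 and 653 counts (KO) and 368 and 299 (WT) at day 0, and 213, 268 and 134 (KO) and 252, 306 and 129 (WT) at day 39. On this scale, chosen after the values were seen, the day 39 values were again the lower ones on average (exact permutation p = 0.0303, adjusted over all tested genes 0.497), while within each genotype the days overlapped. Summed markers of other cell types also differed between the days. The median sum was 1095 CPM at day 0 and 3895 CPM at day 39 for epithelium, 16560 and 6541 CPM for stroma, and 7590 and 4143 CPM for skeletal muscle, and these lists made up at most 0.637%, 2.24% and 2.14% of the counts of a library. The monocyte median was 130 CPM at day 0 and 444 CPM at day 39, and the neutrophil median 0.257 and 79.8 CPM. For the 10 other macrophage markers the median sum was 38030 and 28910 CPM. The part of these lists in the Csf1r difference was not tested. In bulk samples such as these, fewer cells of a type and less RNA per cell cannot be told apart.

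**Figure D2:**
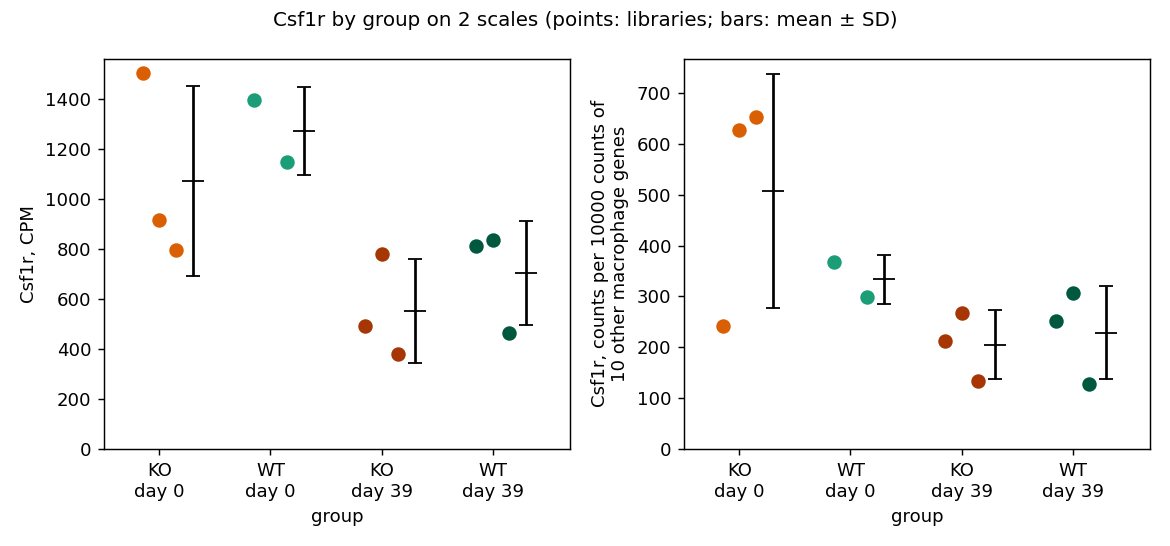
Csf1r in each library (points) with the group mean ± SD (bars beside the points), in CPM on the left and per 10000 counts of 10 other macrophage genes on the right, by genotype label and day. In CPM the day 39 libraries sit at 383 to 838 and the day 0 libraries at 798 to 1506, and on the right WT day 0 and WT day 39 overlap.

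Cx3cr1 encodes the receptor for fractalkine and marks macrophages that have matured in the gut wall. Its level was 1102, 493 and 371.5 CPM (KO) and 1007 and 1177 (WT) at day 0, and 969, 840 and 474 (KO) and 4.25, 514 and 852 (WT) at day 39. Apart from the 14 counts of WT day 39 replicate 1, every library had at least 1646 counts. The groups of libraries labelled WT did not overlap between the days and those labelled KO did. The log2 fold change over time was -1.26 ± 1.54 in WT and 0.22 ± 1.40 in KO (edgeR adjusted p = 0.701 and 0.999). In WT it was -0.69 when the 14-count library, WT day 39 replicate 1, was left out and -2.08 when replicate 3 of that group was. The changes in WT and KO differed by 1.47 ± 2.09 (edgeR adjusted p = 0.831).

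Adgre1, the gene of the macrophage antigen F4/80, had 2192, 1705 and 1503 counts (KO) and 1 and 865 (WT) at day 0, and 3, 1333 and 431 (KO) and 358, 884 and 5993 (WT) at day 39. One library in WT day 0 and 1 in KO day 39 were at the floor or under it, while WT day 39 replicate 3 held the highest level, 1313 CPM. No pair of groups was without overlap. The genotype contrast at day 39 was a log2 fold change of -2.03 ± 2.56 (edgeR adjusted p = 0.867), and it was -0.07 without WT day 39 replicate 3.

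Mrc1 encodes CD206, an endocytic receptor for mannose-bearing glycoproteins. It had 1121, 2077 and 4187 counts (KO) and 2621 and 13 (WT) at day 0, and 7, 2789 and 11 (KO) and 1501, 1162 and 2454 (WT) at day 39. The low values of 7 to 13 counts came from 3 libraries, and the other 8 had at least 1121. The day 39 mean was 185 CPM ± 317 (SD, n = 3) with the KO label and 402 CPM ± 168 (n = 3) with the WT label, a log2 fold change of -1.12 ± 2.45 (edgeR adjusted p = 0.998) that was -7.32 without KO day 39 replicate 2. The sign of its change over time in the mean of both genotypes turned with the scaling, from 0.20 ± 1.82 to -0.04 with DESeq2 size factors.

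Cd163, the scavenger receptor for haemoglobin bound to haptoglobin, was at or under the floor in 5 of 11 libraries. It had at most 880 counts (193 CPM). The libraries held 24, 1 and 183 counts (KO) and 77 and 0 (WT) at day 0, and 0, 0 and 2 (KO) and 28, 436 and 880 (WT) at day 39. At day 39 all 3 libraries labelled KO were at or under the floor and all 3 labelled WT were above it, so that the groups did not overlap. WT day 39 averaged 93.8 CPM ± 92.9 (SD, n = 3), with 8.5 CPM in replicate 1. That mean was 126-fold the mean floor of 0.744 CPM of the KO day 39 libraries. Without WT day 39 replicate 3, the highest library, the mean was 44.3 CPM and the ratio 59.6-fold. The floor covers counting error only, so neither ratio is a lower limit of the difference. The fitted log2 fold change was -8.80 ± 5.43, which depends on the prior count of the fit, and the edgeR adjusted p-value was 0.491. DESeq2 called this difference (adjusted p = 0.0238), as it did 555 genes in the same contrast. Over time Cd163 overlapped between the days in both genotypes.

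Maf, a transcription factor of the large MAF family, was at 360, 11.3 and 507 CPM (KO) and 855 and 614 (WT) at day 0, and 257, 220 and 0 (KO) and 15.5, 353.5 and 423 (WT) at day 39. Both WT day 0 libraries lay above every other library. The genotype difference at day 0 was -1.33 ± 2.37 on the log2 scale (edgeR adjusted p = 0.877). It was -0.84 when KO day 0 replicate 2 was left out, -2.07 when replicate 3 of that group was, and -6.05 without the 3 libraries labelled KO that held Ptger4. The change over time in WT was -1.48 ± 2.37 (edgeR adjusted p = 0.793), and -0.96 without WT day 39 replicate 1.

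Mertk had 0 counts in each of the 11 libraries and was not tested. At the depth of these libraries the floor was 0.196 to 0.911 CPM, so a level under that could not be shown. Its ligand gene Gas6 was above the floor in 11 libraries, with 19 to 5966 counts, while Pros1, the gene of another MERTK ligand, was above it in 2.

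Itgam and Ptprc encode surface proteins by which the cells were sorted. Itgam, the CD11b chain of an integrin that binds complement fragments, had 132, 2127 and 0 counts (KO) and 2562 and 1855 (WT) at day 0, and 3, 3336 and 4 (KO) and 444, 1934 and 1 (WT) at day 39. In CPM, where WT day 0 averaged 447 ± 14.6 (SD, n = 2) and KO day 0 98.2 ± 152 (n = 3), both WT day 0 libraries were above the day 0 libraries labelled KO and above the day 39 WT libraries. Neither difference passed (edgeR adjusted p = 0.806 and 0.871). The genotype contrast at day 39 rested on KO day 39 replicate 2: its log2 fold change was 0.43 ± 2.72 with that library and -7.38 without it.

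Ptprc encodes CD45, the tyrosine phosphatase found on all leukocytes. It had 2407, 1 and 104 counts (KO) and 8 and 2 (WT) at day 0, and 215, 5 and 0 (KO) and 1332, 940 and 1182 (WT) at day 39. All 3 WT day 39 libraries were above all 3 libraries labelled KO at that day and above both WT day 0 libraries. The mean was 279 CPM ± 117 (SD, n = 3) for WT at day 39, 18.9 CPM ± 31.8 (n = 3) for KO at day 39 and 0.950 CPM ± 0.677 (n = 2) for WT at day 0. The log2 fold change was -3.88 ± 3.76 between the genotype labels at day 39 and 8.16 ± 5.54 over time in WT (edgeR adjusted p = 0.726 and 0.428). Between the labels at day 39 it was -9.03 without KO day 39 replicate 1 and -7.35 with the replicate number in the fit. The change over time differed between the genotype labels by -10.96 ± 6.58 (edgeR adjusted p = 0.414). That difference was -5.72 when KO day 0 replicate 1 was left out, -16 when KO day 39 replicate 1 was, and -0.68 without the 3 libraries labelled KO in which Ptger4 went against the label, a choice made after seeing the data. DESeq2 called the change in WT (adjusted p = 0.0230) and that difference (adjusted p = 0.0247), in contrasts where it called 1178 and 934 genes. In KO the change over time was -2.80 ± 3.58, and it turned to 2.45 without KO day 0 replicate 1. Although the cells were sorted as CD45+, 5 libraries had 8 or fewer Ptprc counts.

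**Figure D3:**
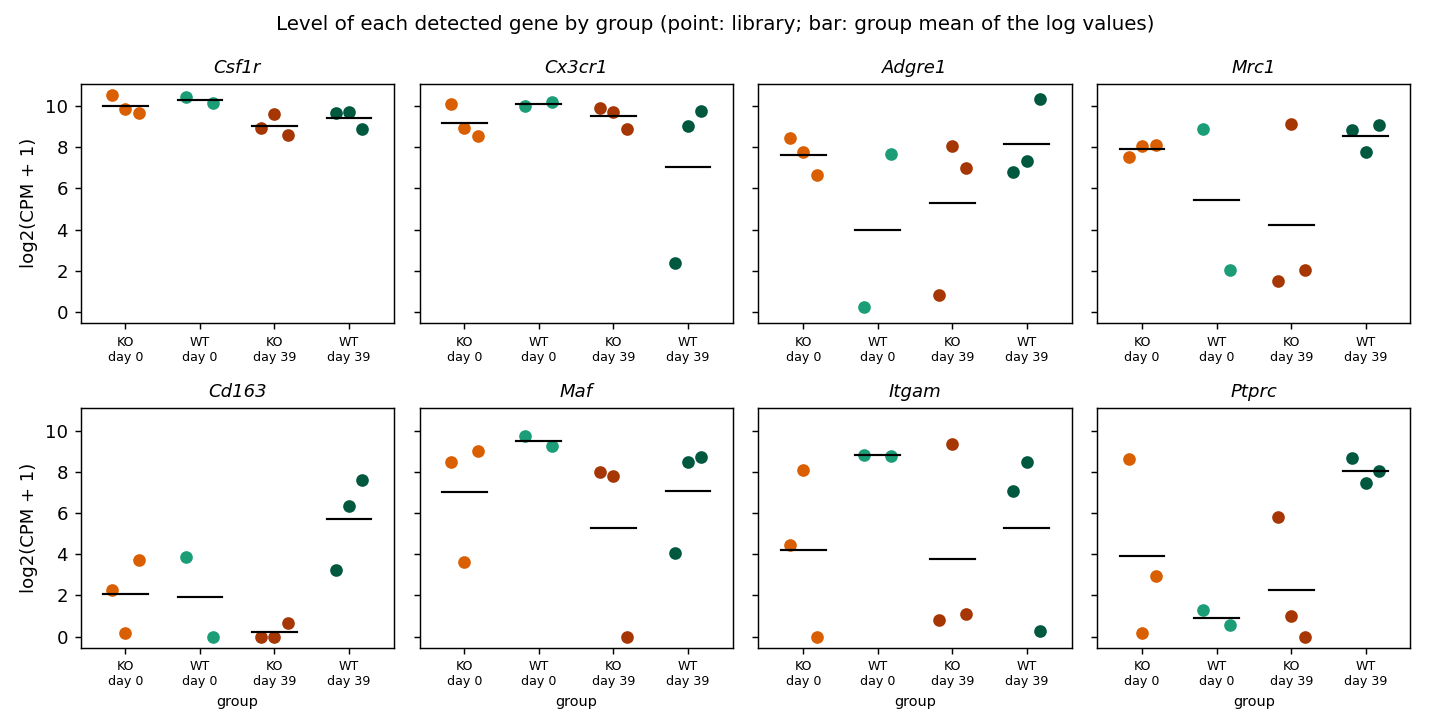
Level of the 8 detected identity genes as log2(CPM + 1), on the vertical axis, by genotype label and day. Each point is 1 library and each black bar the mean of the log values. Csf1r keeps its points within a narrow band, Ptprc and Cd163 at day 39 separate the genotype labels, and the points of Itgam and Mrc1 spread from near 0 to about the level of the highest library within single groups.

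Sequences before the transcription start were available from RefSeq (build GRCm38.p6) for 6 of the 9 genes (Cx3cr1, Mrc1, Cd163, Mertk, Itgam and Ptprc). The 250 bases before the start are printed, 5′ to 3′ on the gene's strand, for 3 of these genes. They are Mrc1, which ranged from 7 to 4187 counts, Itgam, which ranged from 0 to 3336 counts, and Mertk, at 0 throughout. Capitals mark GAGGAA on either strand (TTCCTC on the printed strand when the other strand holds it). These letters are a core bound by PU.1 and related ETS factors, and PU.1 is the lineage factor of macrophages. The windows are chr2:14229164-14229413 (plus strand) for Mrc1, chr7:128062390-128062639 (plus strand) for Itgam and chr2:128698665-128698914 (plus strand) for Mertk. No build of the mouse genome was named for the count files, and the coordinates belong to the RefSeq table alone.
Mrc1: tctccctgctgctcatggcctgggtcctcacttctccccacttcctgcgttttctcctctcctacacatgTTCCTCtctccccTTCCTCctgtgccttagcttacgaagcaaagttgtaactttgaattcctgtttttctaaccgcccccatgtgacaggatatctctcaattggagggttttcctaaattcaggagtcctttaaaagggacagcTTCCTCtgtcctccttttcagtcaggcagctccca
Itgam: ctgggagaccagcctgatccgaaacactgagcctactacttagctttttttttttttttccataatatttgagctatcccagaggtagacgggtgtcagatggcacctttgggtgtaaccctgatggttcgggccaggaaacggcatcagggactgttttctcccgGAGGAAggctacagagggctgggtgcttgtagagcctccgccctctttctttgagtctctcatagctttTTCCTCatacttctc
Mertk: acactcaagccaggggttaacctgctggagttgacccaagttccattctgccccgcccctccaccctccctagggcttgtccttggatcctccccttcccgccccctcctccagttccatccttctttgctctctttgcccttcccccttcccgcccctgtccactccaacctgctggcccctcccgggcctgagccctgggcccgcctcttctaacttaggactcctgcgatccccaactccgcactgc
The Mrc1 window held 3 matches, with 29 bases between the nearest and the start, and the Itgam window held 2, with 9 bases between the nearest and the start. No match lay in the Mertk window. Over the 6 genes, 3 had a match in a window (Mrc1, Itgam and Ptprc). Ptprc had 1 match in a window and 0 in a further window. Cx3cr1, above the floor in 11 libraries, and Cd163, above it in 6, had 0 matches. Counted by window and not by gene, 23.3% of 32851 windows of the same length in the table held a match. A link between matches and detection was not tested. A match is a description of the sequence and not a binding site.

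Tested over all genes, the identity genes gave no call in any of 6 contrasts. Of the 9 genes 8 passed the filter on low counts (Mertk did not), and edgeR called 0 of 8 between genotype labels at day 0, where it called 0.0143% of the tested genes. It called 0 of 8 between genotype labels at day 39 (0.0286% of tested genes), 0 over time in WT (0.0143%), 0 over time in KO (0.157%), 0 over time in the mean of both genotypes (0.301%) and 0 in the interaction (0%). Counted by direction, the calls over all genes were 0.129% higher and 0.0286% lower in KO over time, and 0.258% higher and 0.0429% lower in the mean of both genotypes. None of the 8 had an unadjusted edgeR p under 0.05 in any contrast. In the order of the contrasts above, an unadjusted p under 0.05 was found in 7.99%, 7.28%, 6.68%, 18.2%, 19.2% and 14.4% of the tested genes. The standard errors of the 8 genes ran from 0.95 to 7.02 on the log2 scale over the 6 contrasts. With limma-voom 0 of 8 passed in each contrast, and with DESeq2 the calls were those of Cd163 at day 39 and Ptprc over time in WT and in the interaction, 1 of 7 in each, since it gave Mrc1 no adjusted p. In these 3 contrasts DESeq2 called 13.1%, 27.8% and 22.5% of the genes to which it gave an adjusted p, and 1 of 7 is near or below those shares. In the other contrasts it called 0 of 7, beside 29.3% at day 0, 27% over time in KO and 28.7% over time in the mean of both genotypes.

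Between genotype labels at day 39 the 8 genes had a median log2 fold change of -0.92, with 6 lower and 2 higher in libraries labelled KO, while the median of all tested genes was 0.00. At day 0 the median was -0.31 (5 lower and 3 higher) beside 1.08 for all tested genes. Over time it was -0.04 in WT (4 lower and 4 higher) beside 1.64, and -0.83 in KO (6 lower and 2 higher) beside 0.00. In the mean of both genotypes it was -0.30 (5 lower and 3 higher) beside 0.76, and in the interaction -0.63 (5 lower and 3 higher) beside -1.69, the only one of the 6 contrasts in which the identity genes lay above all tested genes. With upper-quartile scaling the median of all tested genes was 0.00 at day 0, 0.48 over time in WT, 0.18 in the mean of both genotypes and -0.75 in the interaction, so that fold changes in these contrasts depend on the scaling. The libraries of each group are shared between a genotype and a time contrast. The mean of both genotypes and the interaction use all groups, so the medians of the contrasts are not independent of each other.

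Groups without overlap were counted as a second description. At day 39 the libraries labelled KO were below all WT libraries in 2 of 8 genes (Cd163 and Ptprc), and in 3.99% of tested genes. Summed markers of other cell types separated the same groups. The 6 monocyte markers summed to 545 to 1441 CPM in the libraries labelled KO, with 3 above the floor, and to 15.2 to 343 CPM in WT, with 5 above the floor. The 8 skeletal muscle markers, all above the floor in both groups, summed to 3007 to 3962 CPM and 4324 to 14220 CPM. Their part in the differences of Cd163 and Ptprc was not tested. At day 0 this held for Maf and Itgam, and for 5.25% of tested genes, and the reverse for 0 of 8 and 6.73%. The day 0 groups were also separated by the summed neutrophil markers, at 0.257 to 42.5 CPM (KO) and 0 to 0.236 CPM (WT), and dendritic-cell markers, at 0.161 to 0.655 CPM (KO) and 0.707 to 6.97 CPM (WT), whose part was not tested. Over time in WT the day 39 libraries were below those of day 0 in 4 of 8 genes (Csf1r, Cx3cr1, Maf and Itgam) and in 4.72% of tested genes, and above them in Ptprc and in 12.7%. The 10 other macrophage markers also summed lower at day 39 in WT, at 27390 to 36190 CPM against 38030 to 38400 CPM, and the neutrophil markers summed higher, at 1.82 to 307 CPM against 0 to 0.236 CPM. Their part in these differences was not tested. In KO the day 39 libraries were below in Csf1r and in 3.21% of tested genes, and above in 0 of 8 and 8.07%. There the monocyte and epithelial sums were higher in every day 39 library, at 545 to 1441 CPM against 76.8 to 302 CPM and 3840 to 8624 CPM against 74.7 to 1340.0 CPM, and their part was likewise not tested. With both genotypes together, 0 of 8 were without overlap, beside 1.6% of tested genes higher and 0.157% lower at day 39. With 3 against 2 or 3 libraries an exact permutation test cannot reach p under 0.05, so no test was attached to these counts.

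**Figure D4:**
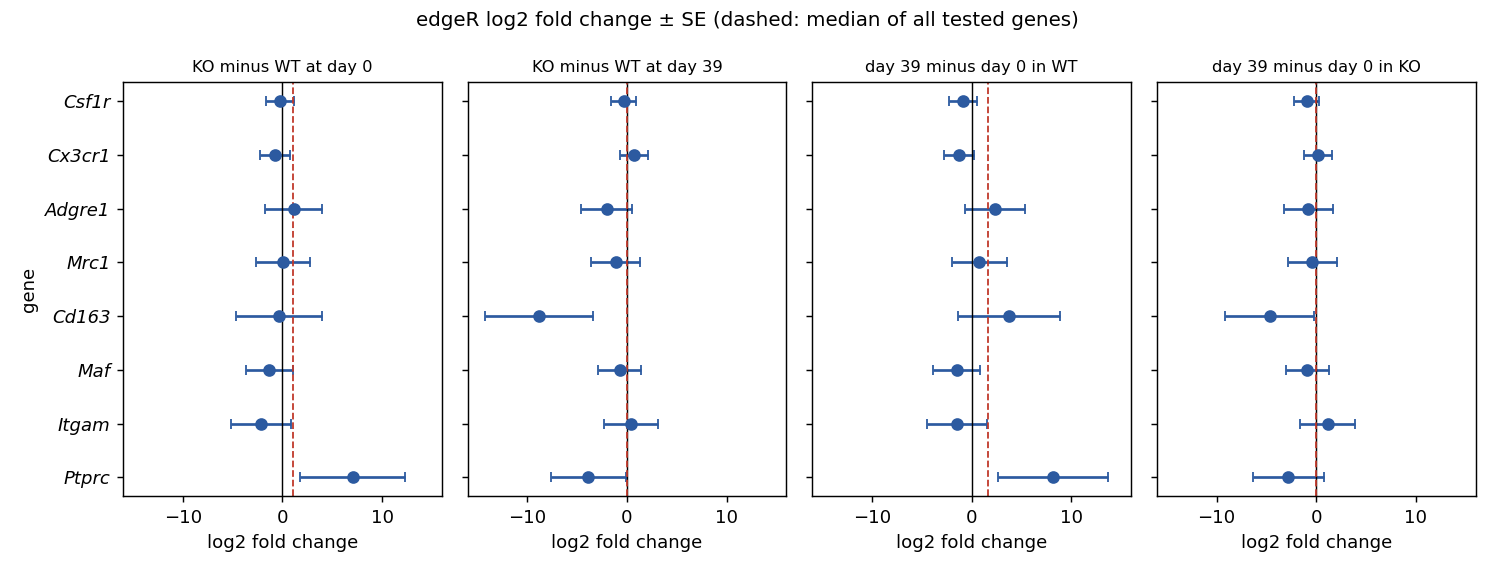
edgeR log2 fold change (horizontal axis) ± SE of the 8 tested identity genes in 4 contrasts. The solid line is 0 and the dashed line the median of all tested genes. All bars of Csf1r, Cx3cr1, Adgre1, Mrc1, Maf and Itgam cross 0, and the bars that do not cross it (Cd163 and Ptprc) belong to genes that did not pass after adjustment.

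Libraries also differed in how many of the 8 genes lay below their own median over the 11 libraries. KO day 39 replicate 3 was below in 8 of 8 and KO day 39 replicate 1 in 6, and the other 9 libraries were below in 2 to 4. Of all tested genes, 22.3% and 23.6% were below their own median in those 2 libraries, and 16.5% to 36.2% in the others, where a gene with a median of 0 cannot be below it. KO day 39 replicate 3 was also 1 of the 3 libraries in which Ptger4 went against the label.

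Apart from Gas6, the ligand genes were seen in few libraries. Csf1, the main ligand of the CSF1 receptor, was above the floor in 1 library (271 counts in WT day 39 replicate 3), Il34 in 2 (2316 counts in KO day 0 replicate 3 and 757 in WT day 39 replicate 1) and Cx3cl1, the gene of fractalkine, in 1 (655 counts in KO day 39 replicate 1). Other transcription factors of the lineage were found more widely. Spi1, the gene of PU.1, had 128 to 4471 counts and was above the floor in 11 libraries, and Irf8 was above it in 10. Spi1 was at 1009, 527 and 913 CPM in KO day 39 and 319, 204 and 104 CPM in WT day 39, without overlap, as in 3.41% of tested genes with KO higher. The log2 fold change was 1.97 ± 2.0 (edgeR adjusted p = 0.754). Fcgr1, the gene of the sorted marker CD64, had 2059, 0 and 0 counts (KO) and 309 and 0 (WT) at day 0, and 1, 111 and 2063 (KO) and 7, 0 and 1207 (WT) at day 39.

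A list of 50 other genes named for macrophages, chosen as the members were, also held ligand genes such as Csf1, Il34 and Cx3cl1. Of these 50, 43 were tested, and 0 rose and 0 fell in each of the 6 contrasts by edgeR. The number with an unadjusted p under 0.05 was between 1 and 4 of 43 per contrast. Their median log2 fold change was -0.21 between genotype labels at day 0 and -0.37 at day 39, beside 1.08 and 0.00 for all tested genes. Over time it was 0.59 in WT, -0.46 in KO and 0.19 in the mean of both genotypes, beside 1.64, 0.00 and 0.76, and in the interaction it was -0.79 beside -1.69. Of the 50, 14 were above the floor in every library, among them Gas6, Spi1, Lyz2, Mpeg1, Tyrobp and Csf2ra, and 3 were at or under the floor in all 11.

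The genes with a level profile most like that of Csf1r were B2m, Cd74, Apoe, Vim and Rpl38. Likeness was the root-mean-square distance of log2(CPM + 1) values, centred on each gene's mean over the 11 libraries, among 1051 other genes that averaged 1000 counts or more. The distances of these 5 genes were 0.560 to 0.645, and those of the 7 other tested identity genes 2.15 (Cx3cr1) to 3.55 (Ptprc). With ranks in place of distances 0 of the 5 stayed among the nearest. B2m was at 3222 CPM ± 886 (SD, n = 5) at day 0 and 2123 CPM ± 793 (SD, n = 6) at day 39.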

How the data were processed

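Libraries were made from Trizol-extracted RNA with a Lexogen QuantSeq kit, per the labels' protocols, a kit that primes at the poly(A) tail. The authors deposited whole-number counts per gene symbol. Per the submitters' processing notes Bowtie2, edgeR and hg19, a human build, were named, while the symbols are of mouse. The counter, annotation, strand setting and use of molecular identifiers are not given in the sources used here. None of the 9 genes overlaps another gene listed in the files by its RefSeq position.

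The main test of the counts was that of edgeR 4.0.16 (R 4.3.3, with limma 3.58.1 and DESeq2 1.42.0 as alternatives). It used 6987 entries kept by filterByExpr, TMM scaling, robust quasi-likelihood, 1 coefficient per group over 11 libraries, two-sided, Benjamini-Hochberg adjustment over all tested genes at 0.05. Each SE was derived from the fold change and its F statistic. CPM uses TMM-scaled library sizes. CPM by day was tested by exact permutation (checked against SciPy 1.17.1). Alternatives covered scaling, filter, test, libraries left out and the replicate block. The procedure was tested on simulated data. The named genes are the 9 members, their ligands, lineage factors, sort markers and the 5 genes most like Csf1r. Some items of these lists are not reported here. The members and lists were chosen with earlier results of these data known.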

Additional observations from a re-analysis of the deposited data

How the results depend on the processing

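No call of an identity gene appeared under other scalings, filters, the non-robust fit, limma-voom, fits to only the groups compared, either replicate block, any fit without 1 library, or the fit without the 3 libraries labelled KO that hold over 100 Ptger4 counts (chosen after seeing the data). DESeq2 called 1 gene at day 39 between genotypes, 1 over time in WT and 1 in the interaction. Libraries with equal numbers did not deviate together (15 pairs, correlations -0.0156 to 0.0685), and the replicate block left 0 identity genes called in each contrast while calls over all genes were 0, 1, 0, 12, 7 and 0 in place of 1, 2, 1, 11, 21 and 0. These are the numbers of the titles. WT day 0 replicate 2 has number 3 in its file header, and with the header numbers, chosen after seeing the data, the 15 pairs gave the same range, the replicate block again called 0 identity genes, and calls over all genes were 0, 1, 2, 12, 13 and 0. With that block Mrc1 was -0.20 between genotypes at day 0 and -1.04 over time in both, Itgam -0.82 between genotypes at day 39 and Csf1r 0.04 in the interaction. There 14 of 48 log2 fold changes kept their sign and moved by over 1.5 times, among them Itgam (-9.64 in place of -2.19 between genotypes at day 0, -7.56 in place of -1.45 over time in WT, 8.82 in place of 2.62 in the interaction and -3.15 in place of -0.14 over time in both) and Mrc1 (-3.96 in place of -1.12 between genotypes at day 39). DESeq2 called 1241, 555, 1178, 1144, 1215 and 934 genes when the contrasts are ordered as genotype at day 0, genotype at day 39, time in WT, time in KO, time in both and interaction, and limma-voom 178, 34, 169, 207, 202 and 19. Other edgeR settings gave 0 to 2, 0 to 3, 0 to 4, 0 to 13, 2 to 59 and 0 to 5, and fits without 1 library 0 to 5, 0 to 2, 0 to 1, 5 to 15, 1 to 62 and 0 to 8.

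Of 1087 alternative log2 fold changes of the 8 genes, 72 had the opposite sign, in 21 of 48 results, all without a call, and the cause was not tested. A further 247, in 46 of 48 results, kept their sign and moved by over 1.5 times, 118 of them without 1 library, 28 with limma-voom, 22 with upper quartile and 21 without the 3 libraries with Ptger4. With upper quartile Csf1r was -1.91 between genotypes at day 0 and -2.52 over time in WT, Cx3cr1 -2.49 and -3.01, Maf -2.96 and -3.02 and Itgam -4.14 and -3.02. Genotype at day 0: Adgre1 was -1.18 with upper quartile, Mrc1 -0.25 with DESeq2 size factors and DESeq2, -0.30 with library size only, -0.79 with upper quartile and -0.13 with the replicate block, Cd163 0.81 with limma-voom. Genotype at day 39: Itgam -1.38 with limma-voom. Time in WT: Adgre1 -0.06 and Mrc1 -0.04 with upper quartile. Time in KO: Cx3cr1 -0.10 with no filter. Time in both: Adgre1 -0.49 with upper quartile, Mrc1 -0.04 with DESeq2 size factors, library size only and DESeq2, -0.17 with upper quartile, -0.47 with limma-voom and -0.11 with the replicate block, Cd163 1.13 with limma-voom, Itgam 0.31 with the replicate block. Interaction: Csf1r 0.11 with DESeq2 size factors and DESeq2, 1.42 with upper quartile and 0.15 with limma-voom, Maf -0.58 with limma-voom. Without the 3 libraries with Ptger4, Ptprc was -2.67 at day 0 and 7.47 over time in KO, Mrc1 0.08 and Maf 4.38 over time in KO, Cd163 0.63 and Maf 1.46 over time in both, and Csf1r 0.37 in the interaction.

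Without 1 library the log2 fold change ranged, for genotype at day 0, from -0.01 to 10.25 (Adgre1), -0.83 to 6.15 (Mrc1) and -1.69 to 8.03 (Cd163), for genotype at day 39 from -7.38 to 1.87 (Itgam), -3.07 to -0.07 (Adgre1), -7.32 to -0.54 (Mrc1) and -9.03 to -3.31 (Ptprc), for time in WT from -0.13 to 6.85 (Mrc1) and -2.08 to -0.69 (Cx3cr1), for time in KO from -0.03 to 0.83 (Cx3cr1), -6.58 to 0.21 (Mrc1), -6.63 to 4.34 (Itgam) and -8.01 to 2.45 (Ptprc), for time in both from -0.19 to 5.28 (Adgre1), -2.91 to 3.20 (Mrc1), -2.14 to 3.61 (Cd163), -4.04 to 1.38 (Itgam) and -0.01 to 5.31 (Ptprc), and in the interaction from -0.44 to 0.22 (Csf1r), -0.01 to 1.32 (Maf) and -5.18 to 5.91 (Itgam). The Csf1r difference by day was -437 to -614 CPM without 1 library, with exact permutation p of 0.00866 to 0.0357 over all settings and adjusted p of 0.345 to 0.676. Mrc1 by day was -0.528 on the log2 scale, -18.8 per 10000 counts of macrophage genes and -3.55 to 114 CPM without 1 library. Itgam ranged from -139 to 9.04 CPM and Adgre1 from -42.8 to 220.0 CPM. The number of identity genes above the floor moved by less than 1 SD per group with a floor of 10 counts or 1 CPM. At these depths the floor of 3 counts is 0.196 to 0.911 CPM, and a level under it could not be shown. That floor covers counting error only, so counts at or under it do not bound the level of a gene. No link between depth and the detection of a gene was tested.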
